A study of Arabidopsis thaliana with 4 samples.

Results

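A set of 8 genes for fast-acting stress transcription factors of Arabidopsis thaliana was followed across all 4 RNA sequencing libraries of a study of the growth regulator HBI1. They were chosen by locus: the cold factors CBF1, CBF2 and CBF3, the zinc finger factors ZAT6, ZAT10, ZAT12 and AZF2, and the drought and heat factor DREB2A, which are 8 of the 33518 loci in the count tables. Libraries were made from total RNA of whole seedlings grown for 5 days on half-strength MS medium in constant light. The HBI1-Ox group (2 libraries) carries 35S::HBI1-YFP, in which the 35S promoter, active in most plant tissues, drives the bHLH factor HBI1 fused to yellow fluorescent protein, and the Col-0 group (2 libraries) is the wild type. No cold, drought or other stress treatment is named in the labels. The labels name 1 construct and no line number, so what HBI1 does and what a single transformed line carries cannot be told apart.

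In Arabidopsis the CBF proteins, also called DREB1, are AP2-type DNA-binding factors whose genes are switched on within minutes of chilling. They bind a short element, CRT or DRE, in front of COR genes, whose products protect cells against freezing and water loss. DREB2A binds the same element but acts in drought and heat, and its protein is kept unstable in unstressed plants. ZAT6, ZAT10, ZAT12 and AZF2 encode C2H2 zinc finger proteins with a repressor motif, and their transcripts rise within a short time of cold, salt, strong light, wounding or oxidants. Several of these genes also respond to touch and to time of day, and their transcripts turn over fast.

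The CBF genes lie side by side on the minus strand of chromosome 4 (TAIR10.1) in the order CBF2, CBF3, CBF1 and together span 7747 bases. Because such copies can exchange reads, a stretch of coding sequence in which they are closely alike is printed first (RefSeq, TAIR10.1). It is the longest run that CBF1 and CBF2 share exactly, 68 bases at the start of the AP2 domain, with the matching stretch of CBF3, in which the 3 bases that differ are in capitals. CBF1 holds it at chr4:13022384-13022451, CBF2 at chr4:13015899-13015966 and CBF3 at chr4:13018816-13018883.
CBF1: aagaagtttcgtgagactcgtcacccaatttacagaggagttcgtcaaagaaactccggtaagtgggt
CBF2: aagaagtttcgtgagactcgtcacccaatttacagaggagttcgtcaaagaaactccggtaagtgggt
CBF3: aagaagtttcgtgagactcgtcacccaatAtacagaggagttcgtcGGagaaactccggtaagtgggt
Over the whole coding sequence, identity was 86.3% between CBF1 and CBF2, 85.0% between CBF1 and CBF3 and 86.7% between CBF2 and CBF3. Of all 50-base windows of the annotated transcript, 2.48% of CBF1, 3.95% of CBF2 and 0.596% of CBF3 occurred in another CBF transcript, and no 75-base window did. No read length is stated in the labels. The row of the count tables for reads aligned to more than 1 place held 0 in every library, so how reads in such stretches were assigned is unknown.

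Promoters are printed for the CBF genes and for ZAT10 and ZAT12, among which are the 3 genes that were lower in HBI1-Ox. Each is the 250 bases before the annotated start site, read 5′ to 3′ on the gene's strand (RefSeq, TAIR10.1; the plus strand for ZAT12 and the minus strand for the others). All 8 loci were found in that annotation. Capitals mark matches, on either strand, to CACGTG (the G-box, a frequent bHLH target, which contains ACGTG), to ACGTG (the core of the abscisic acid response element), to CCGAC (the core of the CRT and DRE element) and to CGCGT (a core bound by CAMTA factors).
CBF1 (chr4:13022997-13023246): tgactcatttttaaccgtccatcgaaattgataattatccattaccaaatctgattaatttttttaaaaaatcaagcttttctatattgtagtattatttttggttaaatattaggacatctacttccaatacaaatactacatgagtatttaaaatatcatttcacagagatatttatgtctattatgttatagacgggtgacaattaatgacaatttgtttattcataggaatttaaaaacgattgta
CBF2 (chr4:13016236-13016485): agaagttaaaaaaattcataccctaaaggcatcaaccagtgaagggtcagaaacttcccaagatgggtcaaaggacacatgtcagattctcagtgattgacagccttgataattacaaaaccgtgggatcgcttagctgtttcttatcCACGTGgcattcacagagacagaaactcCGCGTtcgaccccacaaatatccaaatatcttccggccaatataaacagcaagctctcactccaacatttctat
CBF3 (chr4:13019401-13019650): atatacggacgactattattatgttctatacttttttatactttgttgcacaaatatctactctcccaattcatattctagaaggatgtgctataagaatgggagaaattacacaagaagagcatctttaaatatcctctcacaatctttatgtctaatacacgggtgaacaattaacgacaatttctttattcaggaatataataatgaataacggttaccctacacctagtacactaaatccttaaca
ZAT10 (chr1:9649324-9649573): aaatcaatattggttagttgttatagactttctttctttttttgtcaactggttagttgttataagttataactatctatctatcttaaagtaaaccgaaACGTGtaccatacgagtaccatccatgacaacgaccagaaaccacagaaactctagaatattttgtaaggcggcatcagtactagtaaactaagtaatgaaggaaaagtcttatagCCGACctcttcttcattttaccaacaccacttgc
ZAT12 (chr5:24102564-24102813): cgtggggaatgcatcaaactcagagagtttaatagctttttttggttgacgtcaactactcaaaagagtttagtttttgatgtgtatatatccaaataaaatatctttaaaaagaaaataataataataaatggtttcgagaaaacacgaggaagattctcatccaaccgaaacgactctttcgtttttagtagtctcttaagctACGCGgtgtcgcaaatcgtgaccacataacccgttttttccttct
The G-box letters were in the window of CBF2 and of no other gene among the 8, and in 6.49% of the 27443 protein-coding promoters of the same length. CGCGT was in the windows of CBF2 and ZAT12 and in 6.87% of all. CCGAC was in 3 of the 8 windows (ZAT6, ZAT10 and AZF2) and in 12.0% of all, and ACGTG was in 3 (CBF2, ZAT10 and DREB2A) and in 22.9% of all. The looser E-box, CANNTG, which includes the G-box, was in 3 windows (CBF2, ZAT6 and ZAT10) and in 55.3% of all. The annotated start sites of CBF1 and CBF3 lie 434 and 397 bases before the start codon, against 149 bases for CBF2, so these windows are not at the same distance from the coding sequence. In the 500 bases before the start codon, G-box letters stood in front of 5 of the 8 genes (CBF1, CBF2, ZAT6, ZAT10 and AZF2). They stood there in 9.30% of all protein-coding genes. ACGTG was in this window of 7 of the 8 genes (34.8% of all) and CANNTG of 7 (77.2%). CCGAC was in 3 (23.3%) and CGCGT in 2 (13.4%). For ZAT6 and ZAT10 the start codon lies 325 and 338 bases after the annotated start site. Their G-box letters, and those of CBF1, were not in the 250-base windows, so they reach into the annotated transcript. Such matches are letters only, and binding was not measured in these data.

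Reads on genes ranged from 10785178 to 19647745 per library. HBI1, the introduced gene, had 1567 and 1509 CPM in the HBI1-Ox libraries, against 99.3 and 84.6 CPM in the Col-0 libraries, as the labels call for (CPM on TMM-scaled library sizes). Among 20320 genes tested with edgeR's quasi-likelihood test, 8.33% were higher and 7.15% lower in HBI1-Ox at a Benjamini-Hochberg adjusted p under 0.05, the rule used for every call below. These are 1693 and 1452 genes, against 995 and 3494 with scaling by total counts. The labels number the libraries of a group without saying whether these are separate cultures, and each p-value therefore reflects library spread that could be purely technical. The Col-0 libraries differed from each other more than the HBI1-Ox libraries did: in a chi-square test of counts, 84 genes differed within the HBI1-Ox pair and 2317 within the Col-0 pair. Shoot and root markers were both present, as in whole seedlings. The 4 shoot markers summed to between 24274 and 25293 CPM in HBI1-Ox and between 19386 and 20930 CPM in Col-0, the 4 root markers to between 3551 and 3603 CPM in HBI1-Ox and between 5638 and 5847 CPM in Col-0, and the 4 seed storage markers to at most 10.8 CPM in any library. PYK10, a root and ER body glucosidase gene, carried most of the root sum. It was the 1 root marker called lower (log2 change -0.70, edgeR adjusted p = 0.000449). CASP1, EXPA7 and COBL9 did not pass, and the median log2 change of the 4 root markers was -0.09. Of the 4 shoot markers 3 were called higher. The part of the shoot marker and PYK10 differences in the results below was not tested. In whole seedlings, fewer cells of a type and less RNA per cell cannot be told apart.

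None of the 8 genes was called higher in HBI1-Ox and 3 were called lower, CBF3, ZAT10 and ZAT12. ZAT6, AZF2, CBF2 and DREB2A did not pass, and CBF1 had too few reads to be tested. With 7 genes tested, the 3 lower calls stand beside 7.15% of all tested genes. They include CBF3, which passed the low-count filter through Col-0 alone. The 8 genes were also chosen with earlier results of these data known, so this count is a description and no test of the set. At an unadjusted p under 0.05 edgeR counted 1 higher and 4 lower, with CBF3 among the 4. The share of all tested genes at that looser rule was not counted. After adjustment DESeq2's Wald test gave 0 higher and 3 lower (CBF1, ZAT10 and ZAT12), beside 1142 higher and 797 lower of all 25630 genes it fitted. Limma-voom gave 1 higher and 2 lower, beside 1770 and 1475 of 20320. The median log2 change of the 7 was -1.29, against -0.01 for all tested genes, and it includes CBF3 with the same limit. Both HBI1-Ox libraries lay below both Col-0 libraries for 5 of the 8 genes, which 31.0% of tested genes did, and above them for 2, which 29.7% did. The 5 include CBF3, with the same limit, and CBF1, which is not among the tested genes. For CBF1 the gap was slight, at 0.269 CPM in HBI1-Ox library 1 against 0.369 CPM in Col-0 library 1.

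**Figure D1:**
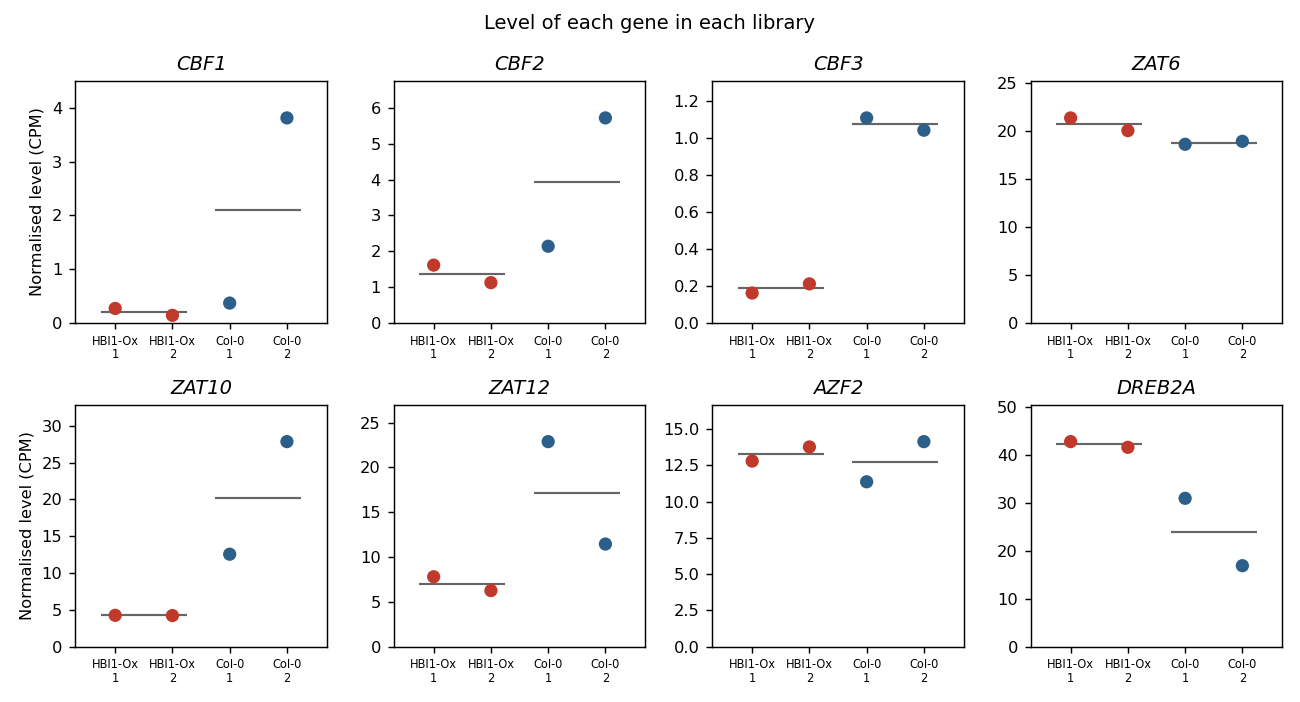
Normalised level (CPM, linear axes from 0) of each of the 8 genes in the 2 HBI1-Ox libraries (red) and the 2 Col-0 libraries (blue), with grey lines at the group means. The HBI1-Ox points of ZAT10 and DREB2A nearly coincide, while their Col-0 points lie at 12.5 and 27.8 CPM and at 31.0 and 16.9 CPM.

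The CBF genes were all expressed at low levels, and for each of them both HBI1-Ox libraries were below both Col-0 libraries. CBF3 (AT4G25480, DREB1A; chromosome 4, 13018010 to 13019400) had 3 reads in each HBI1-Ox library, against 15 and 12 in the Col-0 libraries. That corresponds to 0.161 and 0.211 CPM in HBI1-Ox and 1.11 and 1.04 CPM in Col-0. The Col-0 values were close together and the groups did not overlap. The gene met the low-count filter through its Col-0 libraries alone, and a gene that enters the test through its higher group has to differ. With that limit CBF3 fell, with a log2 change of -2.50 ± 0.43 (± standard error, as for each log2 change below; edgeR adjusted p = 0.0127). On the pooled reads it stood at 17% of its Col-0 level, with an exact 95% counting interval of 5.73% to 42.0%. It overlaps a long noncoding RNA gene, AT4G07385, on the other strand by 29 bases. CBF3 was the one gene of the 8 in the authors' deposited table of 1256 loci, which gives -2.51 as its log2 change of HBI1-Ox over Col-0. The call was lost in DESeq2's Wald test (adjusted p = 0.126), after summing the HBI1-Ox pair into 1 sample (edgeR adjusted p = 0.136), and without HBI1-Ox library 1 (0.211) or 2 (0.156), where the log2 change was between -2.67 and -2.30.

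CBF2 (AT4G25470, DREB1C; chromosome 4, 13015250 to 13016235) had 30 and 16 reads in HBI1-Ox, or 1.61 and 1.12 CPM, against 29 and 66 reads in Col-0, or 2.14 and 5.72 CPM. Col-0 library 2 was high, and Col-0 library 1 lay just above the HBI1-Ox libraries. The log2 change was -1.46 ± 0.49 (95% interval -2.65 to -0.27) and did not pass after adjustment (edgeR adjusted p = 0.101). Its size depended on which Col-0 library was used: it was -2.01 with library 2 alone (edgeR adjusted p = 1.66e-08) and -0.61 with library 1 alone (0.231). It also passed without the low-count filter (edgeR adjusted p = 0.0227). In such fits the lone library is assumed to vary like the pair of the other group, and the HBI1-Ox pair is the closer one, so these p-values are small by construction.

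CBF1 (AT4G25490, DREB1B; chromosome 4, 13021780 to 13022996) had 5 and 2 reads in HBI1-Ox and 5 and 44 in Col-0, or 0.269 and 0.141 CPM and 0.369 and 3.82 CPM. Col-0 library 2 alone was high: in Col-0 library 1 the level was close to that of HBI1-Ox. The low-count filter left the gene out of the test. On pooled reads HBI1-Ox stood at 10.9% of Col-0 (exact 95% counting interval 4.17% to 24.2%), a value set by the 44 reads of 1 library. Without that filter the log2 change was -3.17 and passed (edgeR adjusted p = 0.0270), but without HBI1-Ox library 1 or 2 it did not pass (0.384 and 0.406), nor with the HBI1-Ox libraries summed (0.322).

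Among the zinc finger genes, ZAT10 and ZAT12 were lower in HBI1-Ox, while ZAT6 and AZF2 had similar levels in both groups. ZAT10 (AT1G27730, STZ; chromosome 1, 9648021 to 9649323, minus strand), a repressor first known for salt tolerance, had 79 and 60 reads in HBI1-Ox, against 170 and 321 in Col-0. Its level was 4.25 and 4.22 CPM in HBI1-Ox and 12.5 and 27.8 CPM in Col-0. Both Col-0 libraries were above both HBI1-Ox libraries, and the gap between the Col-0 libraries was itself 2.22-fold. ZAT10 fell by 2.24 on the log2 scale, ± 0.39 (edgeR adjusted p = 0.0127). Without Col-0 library 2 the log2 change was -1.57. The call was lost without HBI1-Ox library 1 or 2 and with these libraries summed.

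ZAT12 (AT5G59820, RHL41; chromosome 5, 24102814 to 24103794, plus strand), which responds to strong light and oxidants, had 145 and 89 reads in HBI1-Ox, against 310 and 132 in Col-0. In CPM these were 7.80 and 6.25 in HBI1-Ox and 22.9 and 11.4 in Col-0. Here Col-0 library 1 was the high one, the reverse of ZAT10 and of CBF1 and CBF2. ZAT12 fell, with a log2 change of -1.29 ± 0.32 (edgeR adjusted p = 0.0407). The change was -0.67 with Col-0 library 2 alone and -1.68 with library 1 alone. It missed the threshold in limma-voom (0.0565), without HBI1-Ox library 1 (0.195) or 2 (0.254) and with the HBI1-Ox libraries summed (0.197).

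ZAT6 (AT5G04340; chromosome 5, 1216058 to 1217362, minus strand), known from phosphate and cadmium responses, had 21.3 and 20.03 CPM in HBI1-Ox and 18.6 and 18.9 CPM in Col-0. All 4 values lay within a narrow band. The log2 change was 0.14 ± 0.08, with a 95% interval of -0.05 to 0.34, and did not pass (edgeR adjusted p = 0.291). Its coding sequence is 72.1% identical to that of ZAT10, the closest pair among the zinc finger genes here, and their longest shared run was 26 bases. AZF2 (AT3G19580; chromosome 3, 6802903 to 6804296, minus strand), an abscisic acid and salt-responsive repressor, had 12.8 and 13.8 CPM in HBI1-Ox and 11.4 and 14.1 CPM in Col-0. The HBI1-Ox values lay between the Col-0 values. Its log2 change of 0.06 ± 0.13 (95% interval -0.25 to 0.38) did not pass either (edgeR adjusted p = 0.794). With scaling by total counts the small log2 changes of ZAT6 and AZF2 were below 0.

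DREB2A (AT5G05410; chromosome 5, 1602205 to 1604112, plus strand) was the most highly expressed of the 8 in HBI1-Ox and had the one log2 change above 0.5. It had 797 and 593 reads in HBI1-Ox and 420 and 195 in Col-0, or 42.9 and 41.7 CPM and 31.0 and 16.9 CPM. Col-0 library 2 was the low one, and the groups did not overlap. The log2 change was 0.80 ± 0.23 (95% interval 0.25 to 1.36) and narrowly missed the threshold (edgeR adjusted p = 0.0629). It was 1.33 with Col-0 library 2 alone and 0.45 with library 1 alone. Limma-voom (0.0464) and edgeR without the low-count filter (0.00540) called it higher, as did edgeR with the replicate number as a block (0.0274), whereas DESeq2 did not (0.299). The gene overlaps AT5G05420 on the other strand by 73 bases, where reads of the genes cannot be told apart without a stated strand setting; AT5G05420 was listed with at most 19 reads in any library.

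**Figure D2:**
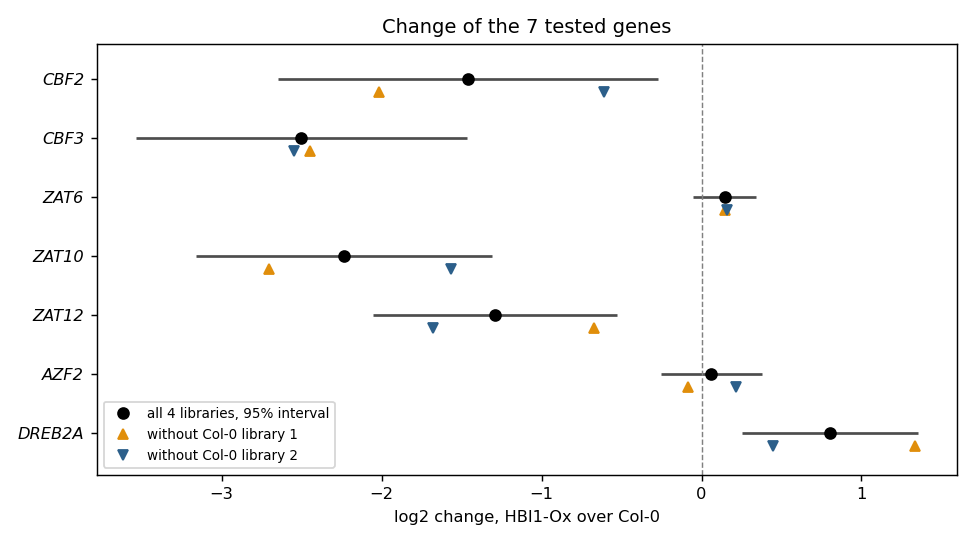
The log2 change, HBI1-Ox over Col-0, of the 7 tested genes from all 4 libraries (black, with 95% intervals) and after leaving out Col-0 library 1 (orange) or Col-0 library 2 (blue). CBF2, ZAT10, ZAT12 and DREB2A shift with the Col-0 library left out, whereas CBF3 stays between -2.55 and -2.45.

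Per length of annotated exon sequence (RPKM, the CPM divided by that length in kilobases; the models of TAIR10.1 may differ from those the authors counted on), the order of the genes differed between the groups. In HBI1-Ox it ran from DREB2A at 25.6 ± 0.5 RPKM (SD, n = 2 libraries, as for each mean here) through ZAT6 at 15.9 ± 0.7, AZF2 at 9.53 ± 0.49, ZAT12 at 7.16 ± 1.11, ZAT10 at 3.25 ± 0.02 and CBF2 at 1.39 ± 0.35 to CBF1 at 0.168 ± 0.075 and CBF3 at 0.134 ± 0.025. Only the last pair of neighbours lay within each other's spread there. In Col-0 the mean levels were 17.5 ± 8.2 RPKM for ZAT12, 15.5 ± 8.3 for ZAT10, 14.5 ± 6.0 for DREB2A, 14.4 ± 0.2 for ZAT6, 9.15 ± 1.41 for AZF2, 3.99 ± 2.57 for CBF2, 1.72 ± 2.00 for CBF1 and 0.772 ± 0.034 for CBF3. The first 4 of these could not be put in order within their spread, AZF2 lay apart from ZAT6 but within the spread of ZAT12, ZAT10 and DREB2A, and CBF1 could not be placed apart from CBF2 or CBF3.

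The 8 genes also differed in how closely the libraries of a group agreed. In the Col-0 pair, counts of 5 of the 8 genes differed by more than counting error, 3 of them higher and 2 lower in library 2; 9.49% of all tested genes were higher and 10.7% lower there by the same rule (exact 95% counting interval of the ratio without 1). CBF1 was 10.3-fold higher in Col-0 library 2 than in library 1 (interval 4.11 to 33.4). With a small constant added to all counts, 0.0394% of tested genes differed as much or more in either direction. CBF1 itself, with 5 and 44 Col-0 reads, did not pass the low-count filter that these genes passed. CBF2 was 2.67-fold higher in library 2 (1.70 to 4.29) and ZAT10 2.22-fold higher (1.84 to 2.69). ZAT12 stood at a ratio of 0.5003 (0.405 to 0.615) and DREB2A at 0.546 (0.458 to 0.648), so both were lower in library 2. CBF3, ZAT6 and AZF2 had intervals that held 1, although CBF3 lies between CBF2 and CBF1 in the genome. In the HBI1-Ox pair none of the 8 differed by this rule, against 2.83% of tested genes higher and 3.29% lower in library 2. Intervals cover counting error and compare these libraries only.

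**Figure D3:**
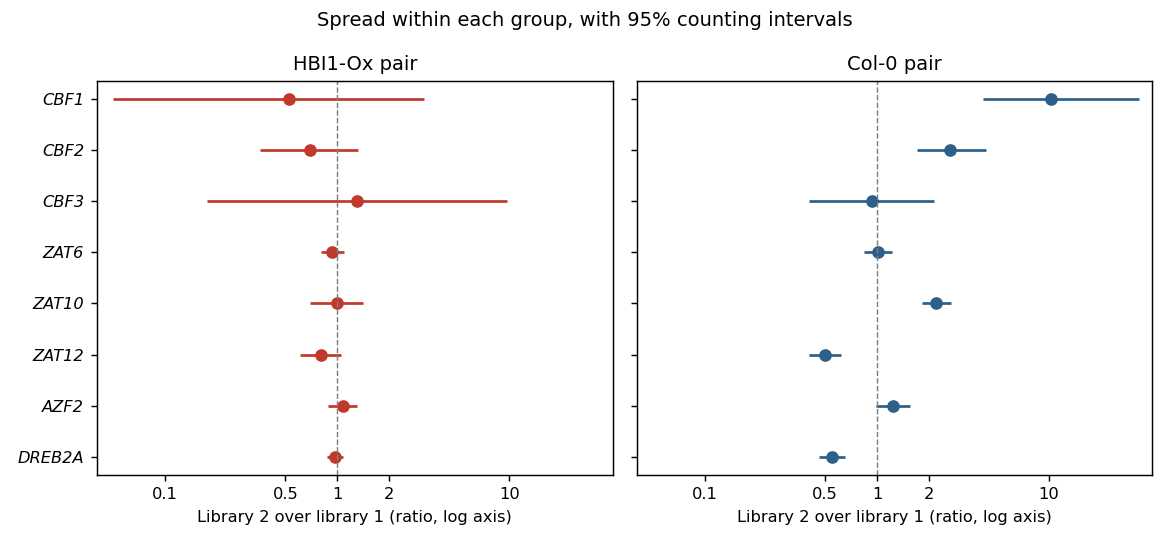
Ratio of library 2 to library 1 for each gene (log axis) in the HBI1-Ox pair (left) and the Col-0 pair (right), with exact 95% counting intervals. All 8 HBI1-Ox intervals hold 1, whereas in Col-0 CBF1, CBF2 and ZAT10 lie above 1 and ZAT12 and DREB2A below.

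Other regulators that respond within the first phase of a stress also differed in both directions between the Col-0 libraries. The list held 17 genes, all tested, and includes TCH4, which encodes a cell wall enzyme and no regulator. Between the Col-0 libraries 11 were higher and 3 lower in library 2 by the counting rule, beside 9.49% and 10.7% of all tested genes. In HBI1-Ox all 17 intervals held 1, and 2.83% of all tested genes were higher and 3.29% lower there. WRKY33, a factor of immune and wound responses, had 21.7 and 21.9 CPM in HBI1-Ox and 68.9 and 180 CPM in Col-0. The other genes named in this paragraph were picked out after their values were seen. WRKY40 had 4.25 and 4.36 CPM in HBI1-Ox and 5.24 and 29.8 CPM in Col-0, a pattern much like that of CBF1. SZF1, a zinc finger gene of salt responses, had 33.7 and 33.0 CPM in HBI1-Ox and 42.2 and 166 CPM in Col-0. The heat genes went the other way: HSFA2, a heat shock factor, had 78.8 and 78.8 CPM in HBI1-Ox and 87.0 and 5.03 CPM in Col-0, and MBF1C, a coactivator of heat tolerance, 375 and 367 CPM in HBI1-Ox and 252 and 25.5 CPM in Col-0. They were thus low in Col-0 library 2, where DREB2A and ZAT12 were also at their lower Col-0 level. The part of this difference between the Col-0 libraries in the changes described here was not tested.

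Between the groups, 3 of the 17 early regulators fell in HBI1-Ox, none rose and 14 did not pass. Among all tested genes 7.15% fell and 8.33% rose. WRKY33 had a log2 change of -2.51 ± 0.42, TCH3, a touch-induced calcium sensor, one of -1.42 ± 0.30, and RAV1, a cold-responsive factor, one of -0.34 ± 0.08 (edgeR adjusted p = 0.0114, 0.0255 and 0.0373). With Col-0 library 2 alone the log2 change was -3.04 for WRKY33 and -1.84 for TCH3, and with library 1 alone it was -1.66 and -0.81. The median of the list was -0.39. At an unadjusted p under 0.05, edgeR counted 1 higher and 9 lower, a rule at which the share of all tested genes was not counted. After adjustment DESeq2 and limma-voom each gave 1 higher, the cell wall enzyme gene TCH4, and 2 and 3 lower. With Col-0 library 2 alone the log2 change was 3.98 for HSFA2, 3.87 for MBF1C, 0.29 for TCH4 and -0.21 for TCH2. With library 1 alone it was -0.14, 0.56, 0.79 and 0.54. These genes were picked after their values were seen, for log2 changes above 0 in such a fit. No gene of the list was called when either HBI1-Ox library was dropped.

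**Figure D4:**
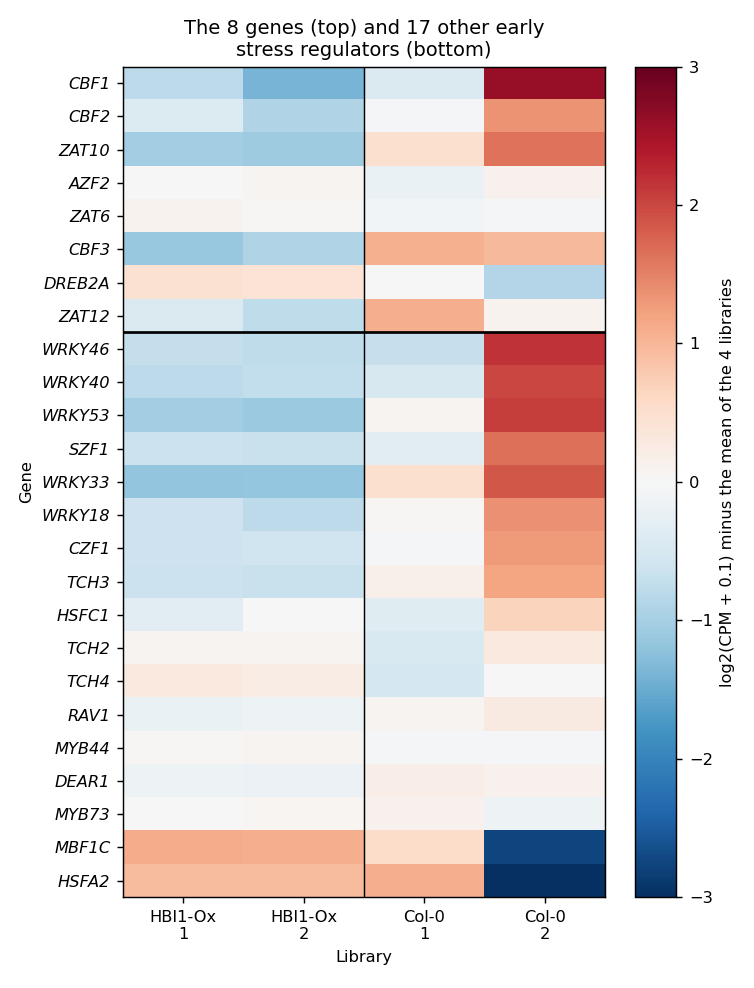
Each gene's log2(CPM + 0.1) minus its mean over the 4 libraries, for the 8 genes (top block) and 17 other early stress genes (bottom block). Rows are sorted within blocks by the difference between the Col-0 libraries. The bottom block holds regulators and the cell wall enzyme gene TCH4. CBF1, CBF2, ZAT10 and the WRKY genes are highest in Col-0 library 2, where MBF1C and HSFA2 are lowest.

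Genes that act upstream of the CBF genes and DREB2A were called in both directions. Of 25 listed regulators 23 were tested, 4 rose in HBI1-Ox, 1 fell and 18 did not pass. Among all tested genes 8.33% rose and 7.15% fell. The median log2 change of the list was 0.00. MYB15, a repressor that binds CBF promoters, had 0.215 and 0.141 CPM in HBI1-Ox, against 3.40 and 1.21 CPM in Col-0. It fell, with a log2 change of -3.63 ± 0.70 (edgeR adjusted p = 0.0188), which was -2.67 with Col-0 library 2 alone and -4.16 with library 1 alone. MYB15 met the low-count filter through its Col-0 libraries alone, and the 1 lower call of the list has that limit. PIF4, a bHLH growth factor that lowers CBF expression in long days, had 85.9 and 84.6 CPM in HBI1-Ox and 44.9 and 28.02 CPM in Col-0. PIF4 rose by 1.22 ± 0.19 on the log2 scale (edgeR adjusted p = 0.00873). CCA1, a morning clock factor that raises CBF expression, rose by 0.41 ± 0.07 (edgeR adjusted p = 0.0146). The other calls, CAMTA2 (0.32 ± 0.07) and the clock repressor gene PRR7 (0.37 ± 0.09), were small and are named after their values were seen. ICE1, an activator of CBF3 in the cold that is also named after its values were seen, had 43.5 and 47.6 CPM in HBI1-Ox and 49.2 and 53.1 CPM in Col-0 and did not pass (edgeR adjusted p = 0.202). None of these genes was called without HBI1-Ox library 1 or 2, and with scaling by total counts 1 was higher and 4 were lower.

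Among 17 relatives, namely CBF4, the DDF genes, other DREB2 genes and other C2H2 zinc finger genes of the same class, 11 were expressed enough to be tested. None rose, 3 fell and 8 did not pass, with a median log2 change of -0.74. Both the 3 and the median include DREB2E and DREB2C, which passed the low-count filter through Col-0 alone and so had to differ. Among all tested genes 8.33% rose and 7.15% fell. At an unadjusted p under 0.05 edgeR counted no higher relative and 5 lower, with no share of all tested genes counted at that rule. DESeq2 and limma-voom called none higher. ZAT11, a zinc finger gene of oxidant and nickel responses, had 0.860 and 1.69 CPM in HBI1-Ox and 4.36 and 5.03 CPM in Col-0 (log2 change -1.92 ± 0.31, edgeR adjusted p = 0.0101). DREB2E and DREB2C, relatives of DREB2A, had log2 changes of -2.29 ± 0.46 and -1.40 ± 0.33 and fell (edgeR adjusted p = 0.0213 and 0.0352); neither was above 1.85 CPM in any library, and both met the low-count filter only with their Col-0 libraries. ZAT8, named after its values were seen, had 0.645 and 0.773 CPM in HBI1-Ox and 8.12 and 0.434 CPM in Col-0, so that 1 Col-0 library alone was high. None was called when HBI1-Ox library 1 was dropped, and ZAT11 alone when library 2 was dropped or in DESeq2.

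Known target genes of the CBF proteins and DREB2A were mostly higher in HBI1-Ox. Of 16 listed targets 15 were tested, 13 rose in HBI1-Ox and none fell, with a median log2 change of 0.80. Like the other lists, this one was chosen with earlier results of these data known. Its count is therefore a description and no test of the set. Among all tested genes 8.33% rose and 7.15% fell. At an unadjusted p under 0.05 edgeR counted 13 higher and 1 lower, with no share of all tested genes counted at that rule. After adjustment DESeq2 called 12 higher and 0 lower, and limma-voom 13 and 0. LEA7, a late embryogenesis abundant protein gene, had 51.4 and 50.03 CPM in HBI1-Ox and 13.2 and 11.3 CPM in Col-0. KIN1, a small cold-induced protein gene, had 72.2 and 68.9 CPM in HBI1-Ox and 20.2 and 18.0 CPM in Col-0. COR413IM1, for a protein of the inner chloroplast envelope, had 60.4 and 61.6 CPM in HBI1-Ox and 23.7 and 21.1 CPM in Col-0. The Col-0 libraries lay close together for these genes, far closer than for CBF1 or ZAT10. The log2 changes were 2.04 ± 0.09, 1.88 ± 0.08 and 1.44 ± 0.08 (edgeR adjusted p = 0.000125, 0.000125 and 0.000228). The 2 tested targets that did not rise both encode transcription factors: RAP2.1 had a log2 change of -1.21 ± 0.32 (edgeR adjusted p = 0.0511) and HSFA3, a heat factor under DREB2A, one of -0.35 ± 0.20 (0.296). Many of these targets also respond to abscisic acid, and activity of the CBF and DREB2A proteins was not measured. Without HBI1-Ox library 1 or 2 there were 9 and 10 higher targets.

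**Figure D5:**
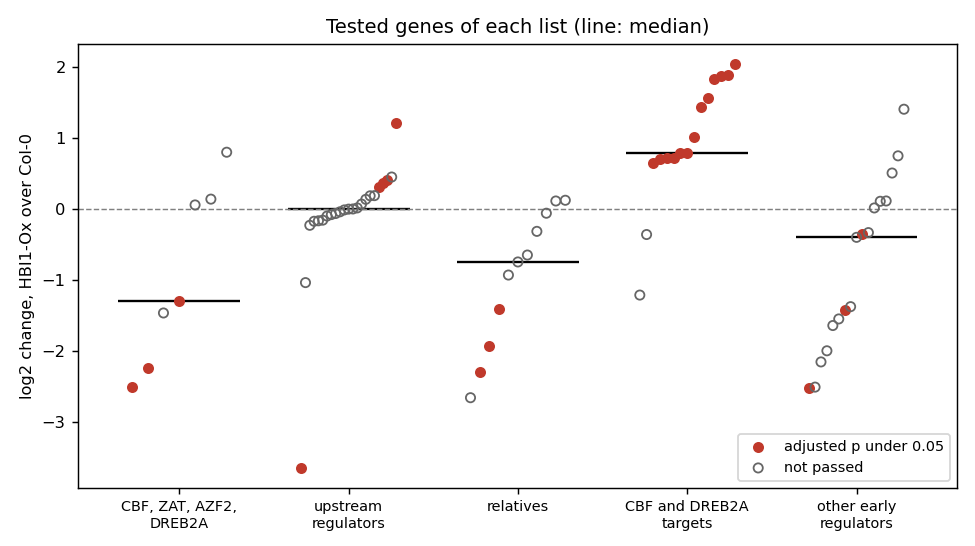
The log2 change, HBI1-Ox over Col-0, of the tested genes of each list, with filled points for adjusted p under 0.05 in edgeR and a line at the median. The CBF and DREB2A targets lie mostly above 0, with a median of 0.80, whereas the 7 tested CBF, ZAT, AZF2 and DREB2A genes have a median of -1.29. All lists were chosen with earlier results of these data known.

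Of 3 oxidant-removing enzyme genes that have been tied to ZAT10 or ZAT12, 2 were tested and both rose, beside 8.33% of all tested genes. FSD1, an iron superoxide dismutase gene, had 499 and 491 CPM in HBI1-Ox and 298 and 262 CPM in Col-0 (log2 change 0.82 ± 0.07, edgeR adjusted p = 0.00120). APX1, the main cytosolic ascorbate peroxidase gene, had 874 and 872 CPM in HBI1-Ox and 702 and 525 CPM in Col-0 (0.51 ± 0.13, edgeR adjusted p = 0.0421). APX2, a gene of strong light stress, was at most 0.141 CPM in every library. Without HBI1-Ox library 1 or 2, FSD1 was the one called gene of this list.

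The genes most like the members in profile over the 4 libraries were found among 6215 nuclear genes with a symbol and at least 10 CPM on average, by the Euclidean distance between log2(CPM + 0.1) values centred on each gene's mean. Nearest to the mean profile of the CBF genes were ERF6, ERF5 and PUP7, at distances of 0.25, 0.34 and 0.52. ERF6 had 7.04 and 6.75 CPM in HBI1-Ox and 17.8 and 45.8 CPM in Col-0. Nearest to the mean of the zinc finger genes were EBP, ABCG30 and MT1C (0.04, 0.06 and 0.07), genes with even Col-0 libraries; that mean averages over ZAT10 and ZAT12, which differ in opposite directions between the Col-0 libraries. Nearest to DREB2A were HSFB2A, DREB26 and RK2 (0.06, 0.10 and 0.14). HSFB2A, a heat shock factor, had 51.0 and 48.8 CPM in HBI1-Ox and 36.02 and 19.0 CPM in Col-0. With 4 libraries such likeness is a description of these samples.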

How the data were processed

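RNA of 4 seedling samples (Spectrum kit, Sigma) was sequenced from barcoded TruSeq libraries, per the labels' protocols. The authors deposited raw read counts per locus for each library. Per the submitters' processing notes, TopHat, DESeq and the build TAIR10 were used, with no version, counter or strand setting given in the sources used here. Rows that name no gene held 13.2% to 13.7% of reads and were left out. A second table, deposited by the authors, gives log2 fold changes for a subset of loci, chosen by a rule that no label states.

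Genes were kept by filterByExpr (minimum count 10, minimum total 15), scaled with TMM and compared between HBI1-Ox and Col-0 by edgeR's quasi-likelihood test (version 4.0.16, R 4.3.3; no block, 2 residual degrees of freedom). The p-values of all tested genes were adjusted together (Benjamini-Hochberg). Standard errors are the absolute log2 change divided by the square root of F. With 2 libraries a group, the smallest p of an exact permutation test is 0.333. In data simulated for this comparison on 20320 genes, 80% of 2-fold and 59% of 1.5-fold changes were recovered and 8 of 19937 unchanged genes were called. Each simulated gene had the same spread in both groups, set by a trend over all genes. In the data 84 genes differed within the HBI1-Ox pair and 2317 within the Col-0 pair. These shares therefore need not hold for genes with uneven Col-0 libraries. Intervals on counts are exact binomial, at 95%, and cover counting error only. Sequences, exon lengths and start sites are from RefSeq TAIR10.1; the count files carry no coordinates.

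The members and gene lists were chosen with earlier results of these data known. Lists are keyed by locus. Named genes were the 8 members, HBI1, up to 3 called genes per pathway list with the smallest adjusted p, and the 3 nearest profiles; any other list gene was named after its values were seen. Alternatives were RLE factors, total counts, no filter, a filter of 1 CPM in 2 libraries, DESeq2 1.42.0, limma-voom (limma 3.58.1), the replicate number as a block, each library left out, HBI1-Ox libraries summed and a threshold of 0.01.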

Additional observations from a re-analysis of the deposited data

How the results depend on the processing

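Among all tested genes, 995 were higher and 3494 lower with scaling by total counts, which moved the median log2 change of all genes to -0.16; DESeq2 called 797 lower. Summed HBI1-Ox libraries gave 307 and 271, and the threshold of 0.01 gave 709 and 519. Leaving out 1 library gave 242 to 3516 higher and 187 to 3009 lower. Of the 8 genes, 5 were lower and 1 higher without the low-count filter, 1 was higher in limma-voom, none was lower with HBI1-Ox libraries summed or at 0.01, and leaving out 1 library gave 0 to 5 lower and 0 to 1 higher; the higher gene was DREB2A each time. ZAT6 turned to -0.0068 with total counts, and AZF2 to -0.089 with total counts; leaving out 1 library put AZF2 between -0.086 (Col-0 library 2 alone) and 0.22 (Col-0 library 1 alone). The replicate number as a block gave 1 higher member (DREB2A) and 6 lower early regulators; the deviations of same-numbered libraries had a correlation of 0.00038 across genes, and the labels do not say that a number marks a shared batch.

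Early regulators: 6 were lower with total counts, 1 higher and 9 lower without the filter, 1 higher in DESeq2 and in limma-voom, and 0 lower when summed or at 0.01; leaving out 1 library gave 0 to 3 higher and 0 to 11 lower. Relatives: 1 was lower in DESeq2 and when summed, 0 at 0.01, and 0 to 6 with 1 library left out. Targets: 1, RAP2.1, was lower with total counts, without the filter and with the 1 CPM filter, and 0 to 1 with 1 library left out, while the count of higher targets stayed between 9 and 13 in all settings. Upstream regulators: 1 was higher and 4 lower with total counts, 2 lower without the filter, 2 higher in DESeq2, none higher or lower when summed, 1 higher and 0 lower at 0.01, and 0 to 7 higher and 0 to 4 lower with 1 library left out. Oxidant enzymes: 1 was higher with total counts, when summed and at 0.01, and 1 to 2 with 1 library left out. The cause of these shifts was not tested. Few reads limit the CBF genes: 3 reads per HBI1-Ox library leave CBF3 uncertain by a wide interval, and CBF1 could not be tested in the main setting.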
